A study of Mus musculus with 9 samples.

Results

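The comparison described here set right ventricle labelled Lrat-/- against wild-type right ventricle in mice that all ate a vitamin A sufficient diet, and it covered every gene on the array. It used 6 of the 9 arrays of the series, 3 labelled Lrat-/- and 3 labelled wild type, chosen by their titles. The tested features were 22061 genes, each read from its brightest probe set on average. All mice were male and were killed after 50 days on the diet, which carried 250000 U/kg of added retinol palmitate. The remaining 3 arrays, labelled Lrat-/- and fed the same diet with no retinol palmitate added, are given beside the results as values only. The strain, the age and the way the Lrat allele was made are not given in the sources used here. Whether each array came from its own animal is not given either. The p-values set each difference against the spread within the groups of all 9 arrays, and that spread may be technical only.

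Lrat encodes lecithin retinol acyltransferase, which joins retinol to a fatty acid so that vitamin A can be stored as retinyl ester in liver, lung, eye and other tissues. Retinol released from such stores is oxidised to retinaldehyde and then to retinoic acid, which acts through the nuclear receptors RAR and RXR on target genes. In the heart, retinoic acid is best known for its part in development, and the epicardium is a site of its synthesis. The comparison asks which right ventricular transcripts differ between the genotypes when vitamin A is supplied.

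The arrays carried heart muscle signal in both groups. The 14 cardiomyocyte markers averaged 13.39 to 13.59 in log2 units across arrays labelled Lrat-/- and 13.46 to 13.61 in wild-type arrays. Their median difference was -0.03, or 0.02 without wild-type array 2, and none of them was at background on all 6 arrays. Background was taken as the median of the 5222 negative control probe sets, which lay between 5.29 and 5.69 in each of the 9 arrays. Wild-type array 2 stood apart. Of 36 genes known from nasal and olfactory mucosa, a list drawn up after these values were seen, 29 had their highest signal of all 9 arrays in wild-type array 2, where 15.6% of all genes had theirs. The mean of the 36 genes was 5.89, 6.11 and 5.96 in the arrays labelled Lrat-/- and 6.36, 7.51 and 6.02 in the wild-type arrays. Results that move with wild-type array 2 are therefore also given without it.

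Lrat itself was examined first, because it checks the labels. Its log2 signal was 7.88, 7.64 and 8.09 in the arrays labelled Lrat-/- and 6.35, 6.24 and 6.43 in the wild-type arrays. The groups did not overlap, and the gene that the label names as lost had the higher signal in every array that carries the label. The difference was 1.53 (SE 0.12, 95% interval 1.27 to 1.79, limma adjusted p = 0.00153), or 2.89-fold. The 3 arrays labelled Lrat-/- on the deficient diet read 7.58, 7.69 and 7.81, and they too lay above all wild-type arrays. All these Lrat signals were above the median of the negative control probe sets but below their 95th percentile. That percentile was 8.429, 8.391 and 8.385 in the sufficient-diet arrays labelled Lrat-/- and 8.339, 8.091 and 8.541 in the wild-type arrays. Where this probe set lies relative to the deleted part of the gene is not given in the sources used here, and a probe set outside that part checks nothing. Each direction below rests on the labels as deposited, and the libraries are called by them.

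A gene was called when its limma p, adjusted over all 22061 genes by the Benjamini-Hochberg method, was under 0.05. There were 8 such genes, 0.0363% of those tested, with 3 higher (0.0136%) and 5 lower (0.0227%) in the arrays labelled Lrat-/-. Lgr6, Lrat and Pkig rose, and Gdpd3, Hal, Olfr872, Elovl7 and Plekha7 fell. Over all genes the median difference was 0.00 and the central 90% lay between -0.23 and 0.24, and each of the 8 differences lay far outside that range. The count was 27 without wild-type array 1, 17 without wild-type array 3, and 2 when only the 6 arrays of the comparison entered the fit.

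**Figure D1:**
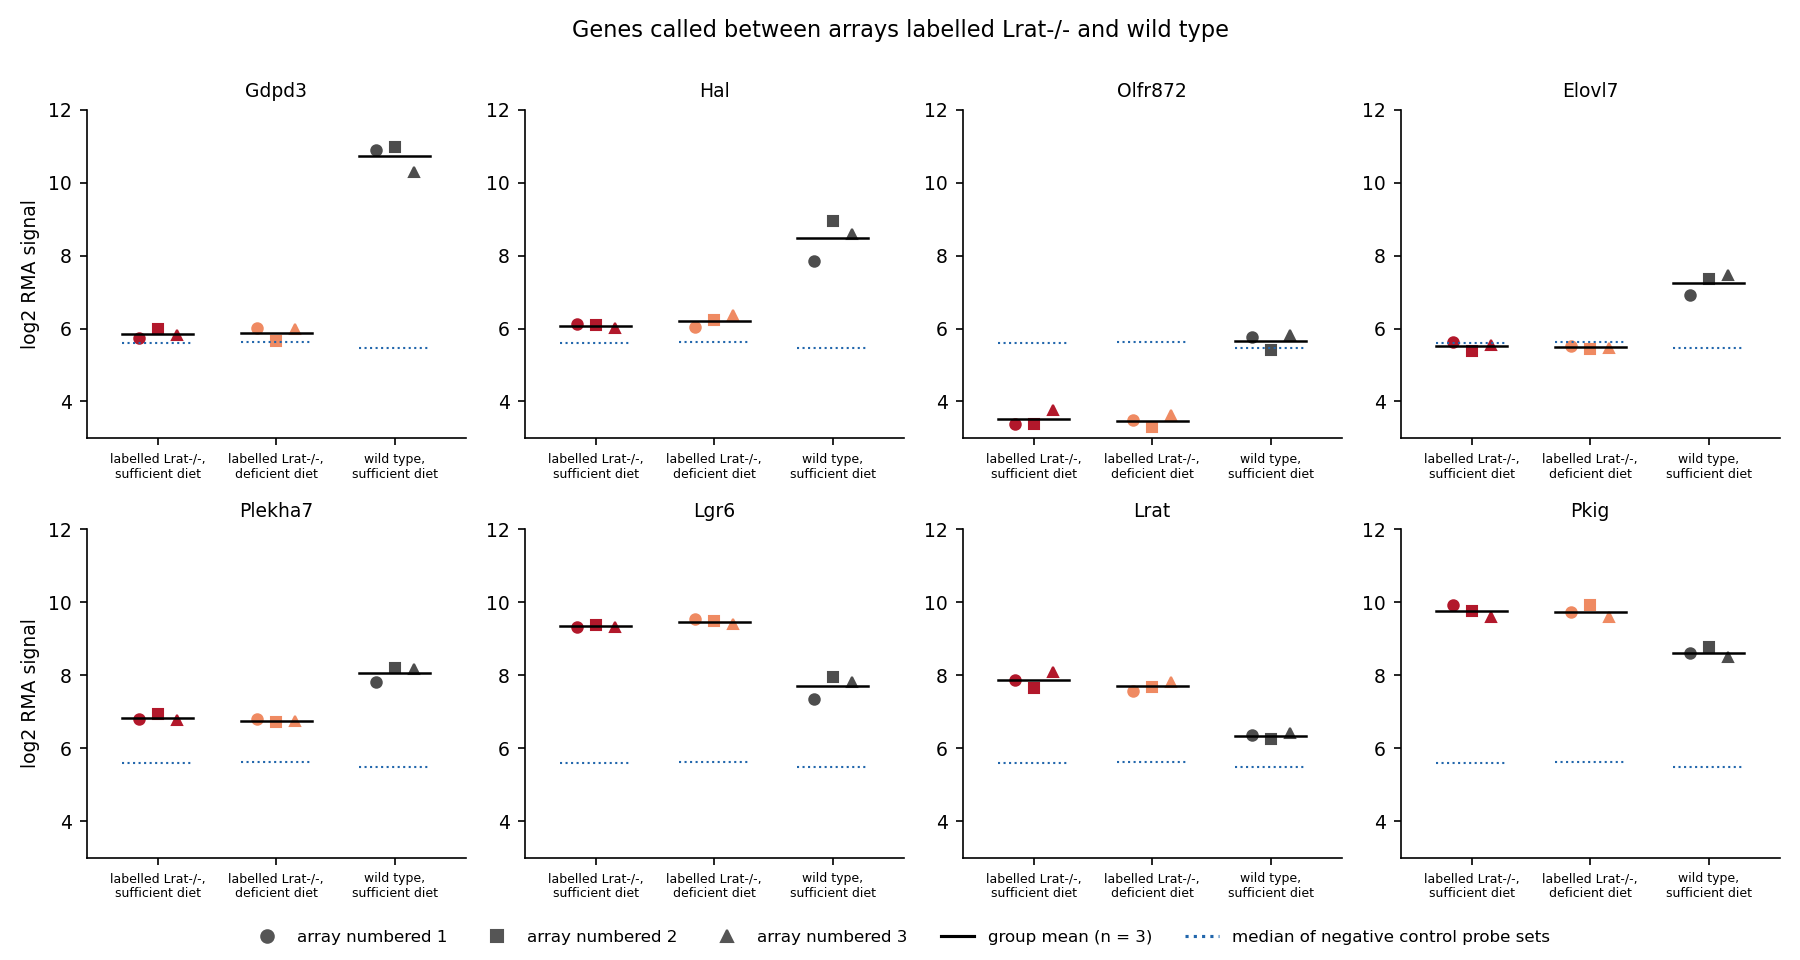
Log2 RMA signal of the 8 called genes in each array, by group, with the group mean (solid bar, n = 3) and the median of the negative control probe sets (dotted line). Gdpd3 reads 5.73 to 5.98 where arrays are labelled Lrat-/- with the sufficient diet and 10.30 to 10.99 in wild type, and the arrays on the deficient diet sit beside the sufficient-diet arrays of the same label for every gene.

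Gdpd3, a glycerophosphodiesterase that acts on lysophospholipids, had the widest difference of any gene tested. Its signal was 5.73, 5.98 and 5.82 in the arrays labelled Lrat-/- and 10.90, 10.99 and 10.30 in the wild-type arrays. The arrays labelled Lrat-/- lay just above the control median and the wild-type arrays far above it, with no array in between. Gdpd3 fell by 4.88 on the log2 scale (SE 0.18, 95% interval -5.28 to -4.49, limma adjusted p = 6.12e-06), or 29.5-fold lower. Of 29 enzymes of lysophospholipid and glycerophosphodiester metabolism, no other member was called. Mboat2, a lysophospholipid acyltransferase, came nearest, with 7.56, 7.67 and 7.29 across arrays labelled Lrat-/-, against 9.41, 9.37 and 8.54 in wild type. Its difference was -1.60 (adjusted p = 0.0951), but Mboat2 passed once array numbers were blocked (adjusted p = 0.00242) and also without wild-type array 3 (adjusted p = 0.0137). The median of the whole list was -0.04.

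Elovl7, an elongase of long chain fatty acids, read 5.62, 5.39 and 5.54 across arrays labelled Lrat-/-, against 6.92, 7.35 and 7.48 in wild type. It was below the control median on all 3 arrays labelled Lrat-/-, so its fall of 1.73 on the log2 scale (adjusted p = 0.00153) is given as at least 3.13-fold lower. Such a bound sets the mean of the brighter group against the mean, per array, of the control median or the probe set's own signal, whichever is higher. Among 20 genes of fatty acid elongation and desaturation the median difference was -0.04. Scd1, the stearoyl-CoA desaturase, read 8.86, 8.66 and 8.84 across arrays labelled Lrat-/-, against 9.71, 9.11 and 9.29 in wild type, a difference of -0.58 that was not called (adjusted p = 0.400). Fads2, the delta-6 desaturase, differed by -0.29 and was not called either (adjusted p = 0.656).

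Hal, histidine ammonia-lyase, the first enzyme of histidine breakdown, read 6.12, 6.09 and 6.02 across arrays labelled Lrat-/-, against 7.86, 8.96 and 8.59 in wild type. The wild-type arrays spread over more than 1 log2 unit, and the lowest of them was still well above every array labelled Lrat-/-. Hal fell by 2.39 on the log2 scale (95% interval -2.91 to -1.87, adjusted p = 0.00605), or 5.25-fold lower, and was not called without array 3 of those labelled Lrat-/- (adjusted p = 0.0642). No other of the 10 genes of histidine and histamine metabolism was called. Hnmt, which methylates histamine, had a difference of -0.58 with overlapping groups (adjusted p = 0.696).

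Plekha7, a protein of the apical adherens junction, read 6.80, 6.95 and 6.76 across arrays labelled Lrat-/-, against 7.82, 8.20 and 8.18 in wild type. It fell by 1.23 on the log2 scale (adjusted p = 0.00334), or 2.34-fold lower. The rest of the 25 genes of the intercalated disc and adherens junction were not called, and the list median was 0.02. Xirp2, an actin-binding protein of the intercalated disc, had the largest positive difference, 0.65, with overlapping groups (adjusted p = 0.864). Olfr872, an olfactory receptor gene, read 3.38, 3.39 and 3.77 across arrays labelled Lrat-/-, against 5.77, 5.41 and 5.81 in wild type. Its wild-type signals were close to the control median, which lay at 5.52, 5.29 and 5.63 in those arrays. Olfr872 fell by 2.15 on the log2 scale (adjusted p = 0.00101), and as a bound it was at least 1.04-fold lower.

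Lgr6, a receptor for R-spondins that strengthens Wnt signalling, read 9.32, 9.39 and 9.32 across arrays labelled Lrat-/-, against 7.36, 7.96 and 7.80 in wild type. The arrays labelled Lrat-/- agreed within 0.08, and none came near the wild-type values. Lgr6 rose by 1.63 on the log2 scale (95% interval 1.33 to 1.94, adjusted p = 0.00245), or 3.10-fold higher. Among 30 genes of Wnt and R-spondin signalling the median difference was 0.01 and no other gene was called. The secreted Wnt antagonists did not go one way, with differences of -0.55 for Sfrp2, -0.37 for Sfrp1 and 0.46 for Sfrp5, none of them called although the groups did not overlap.

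Pkig, an inhibitor of the catalytic subunit of protein kinase A, read 9.92, 9.78 and 9.61 across arrays labelled Lrat-/-, against 8.60, 8.76 and 8.50 in wild type. It rose by 1.15 on the log2 scale (adjusted p = 0.00842), or 2.22-fold higher. Pkig was not called without array 1 (adjusted p = 0.0530) or array 2 (adjusted p = 0.0648) of those labelled Lrat-/-. The 24 subunits, inhibitors, anchors and neighbours of the kinase in the list had a median difference of 0.03, and Adcy5, an adenylyl cyclase of heart muscle, had a difference of 0.30 that was not called (adjusted p = 0.793).

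For all 8 called genes the arrays labelled Lrat-/- on the deficient diet lay with those on the sufficient diet. Among arrays labelled Lrat-/-, Gdpd3 averaged 5.84 ± 0.13 with added retinol palmitate and 5.88 ± 0.19 without it, and 10.73 ± 0.37 in wild type (SD, n = 3 each). Lgr6 averaged 9.34 ± 0.04 and 9.47 ± 0.07 in the arrays labelled Lrat-/- on the sufficient and deficient diets and 7.71 ± 0.32 in wild type (SD, n = 3 each). Both comparisons with wild type share the same 3 wild-type arrays.

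The DNA before the starts of the 3 genes with the clearest place in the result is shown because retinoic acid receptors bind direct repeats of a short half-site. The sequences come from RefSeq (GRCm38.p6) and hold the 250 bases before the annotated start, read 5′ to 3′ on the strand of the gene. Gdpd3 has the widest difference and lies on the plus strand at chr7:126766164-126766413, Lrat names the genotype and lies on the minus strand at chr3:82903975-82904224, and Lgr6 rose most and lies on the minus strand at chr1:135105277-135105526. Capitals would mark a half-site.
Gdpd3: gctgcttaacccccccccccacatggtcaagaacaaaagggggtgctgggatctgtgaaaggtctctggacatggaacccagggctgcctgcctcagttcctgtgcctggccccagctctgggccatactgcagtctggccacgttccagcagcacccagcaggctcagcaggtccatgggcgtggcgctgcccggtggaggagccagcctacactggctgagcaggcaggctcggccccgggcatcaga
Lrat: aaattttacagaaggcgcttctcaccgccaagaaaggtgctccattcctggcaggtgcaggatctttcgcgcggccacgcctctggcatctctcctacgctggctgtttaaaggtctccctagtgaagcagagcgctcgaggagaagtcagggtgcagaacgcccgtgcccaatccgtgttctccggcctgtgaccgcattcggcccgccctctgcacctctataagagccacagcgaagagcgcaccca
Lgr6: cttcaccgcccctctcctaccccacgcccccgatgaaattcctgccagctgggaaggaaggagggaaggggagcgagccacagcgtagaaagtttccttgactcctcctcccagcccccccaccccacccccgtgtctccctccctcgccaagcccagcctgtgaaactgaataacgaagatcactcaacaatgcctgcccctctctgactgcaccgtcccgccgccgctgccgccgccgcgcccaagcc
The half-site was searched on both strands in 4 spellings, with overlapping matches counted. Of these AGGTCA is the usual one, AGTTCA changes a middle base, GGGTCA changes the first base and GGTTCA changes both. None of these letters is in the windows of Gdpd3, Lrat or Lgr6. Promoter windows were held for 7 of the 8 called genes, 9 windows in all, and only the window of Olfr872 held the half-site, at 2 places. Of 32851 windows of the same length, 38.6% held at least 1 half-site, 0.174% held a direct repeat spaced by 2 bases and 0.0883% one spaced by 5 bases. No window of a called gene held either repeat.

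Probe sets that carry no gene symbol held differences as wide as those of any gene. They were fitted together with the genes and controls, over all 35556 probe sets. Of them 4 gave the same values on every array and are annotated to the envelope of an endogenous virus related to Friend spleen focus-forming virus, a remnant of retroviral infection carried in the mouse genome. They read 11.28, 11.42 and 11.50 across arrays labelled Lrat-/-, against 5.01, 5.48 and 5.87 in wild type. The wild-type arrays were around the control median while those labelled Lrat-/- were far above it, a difference of 5.95 (95% interval 5.50 to 6.41, limma adjusted p = 6.74e-06). Wild-type array 1 was below the control median, so the fold is given as a bound, at least 55.0-fold higher. The arrays on the deficient diet read 11.43, 11.31 and 11.11.

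Another probe set with the same annotation read 9.80, 9.95 and 9.57 across arrays labelled Lrat-/-, against 8.75, 8.50 and 4.47 in wild type. The groups did not overlap, but wild-type array 3 lay far below the other wild-type arrays, and the difference of 2.54 was not called (adjusted p = 0.954). A probe set annotated to a retroviral gag protein read 7.21, 7.80 and 8.19 across arrays labelled Lrat-/-, against 6.44, 6.22 and 5.73 in wild type, a difference of 1.61 that was not called (adjusted p = 0.197). Other retroviral probe sets had smaller differences. A group of 23 probe sets with the same values, annotated to a retroviral clone, differed by 0.52 with overlapping groups. The ecotropic provirus had a difference of -0.11 in one probe set and, in the probe set of Mela, -0.07, both with overlapping groups. The first read close to the control median and the probe set of Mela was below it on all 6 arrays, so a difference was not detectable there.

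A probe set with no annotation in the files read 10.94, 10.90 and 11.03 across arrays labelled Lrat-/-, against 5.53, 5.95 and 5.79 in wild type. This was the lowest p of the array, with a difference of 5.20 (SE 0.11, limma adjusted p = 7.27e-07). One negative control probe set, a sequence meant to match no transcript, also differed: 7.88, 7.71 and 7.34 across arrays labelled Lrat-/-, against 4.83, 4.98 and 4.67 in wild type (difference 2.82, adjusted p = 1.18e-04). All 3 wild-type signals were below the control median, and as a bound the probe set was at least 4.49-fold higher. A pseudogene probe set fell by 2.58 on the log2 scale (adjusted p = 0.0278), and as 2 of the 3 arrays labelled Lrat-/- were below the control median, it was at least 5.71-fold lower. A positive control probe set fell by 1.81 on the log2 scale (adjusted p = 0.00893). With these, the 4 viral probe sets and the 8 genes, 16 probe sets were called over the whole array.

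**Figure D2:**
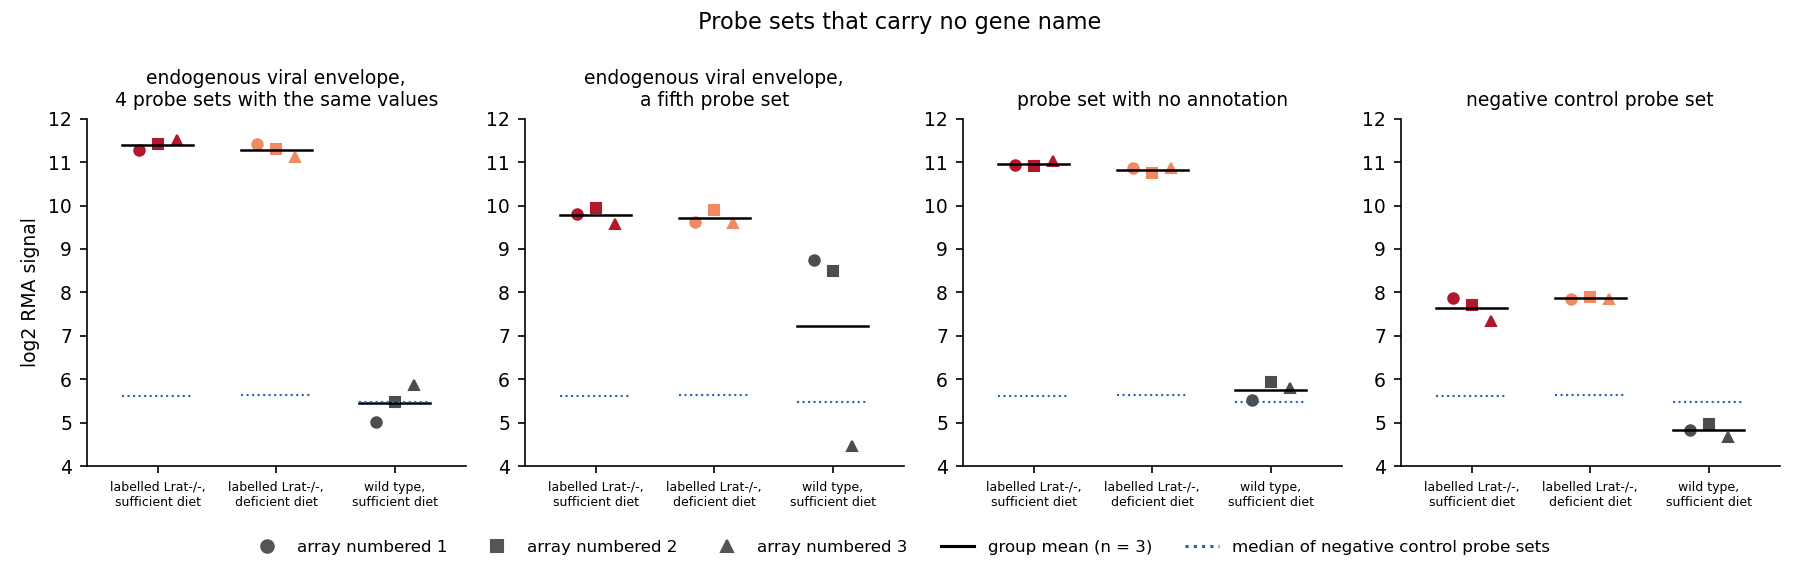
Log2 RMA signal of probe sets without a gene name in each array, by group, with the group mean (solid bar, n = 3) and the median of the negative control probe sets (dotted line). The 4 viral envelope probe sets read 11.28 to 11.50 where arrays are labelled Lrat-/- with the sufficient diet and 5.01 to 5.87 in wild type.

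In the authors' deposited table, 8 probe sets had a false discovery rate under 0.05 for a difference between any of the 3 groups, and 2 of them were genes, Lrat and Gdpd3. Its ratio of arrays labelled Lrat-/- to wild type was 3.04 for Lrat and 0.0367 for Gdpd3. The authors' deposited table gave 55.4 for each of the 4 viral probe sets, 34.9 for the probe set with no annotation and 6.58 for the negative control probe set. Across genes, which are not independent replicates, the log2 of that ratio and the difference used here had a Pearson r of 0.921.

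**Figure D3:**
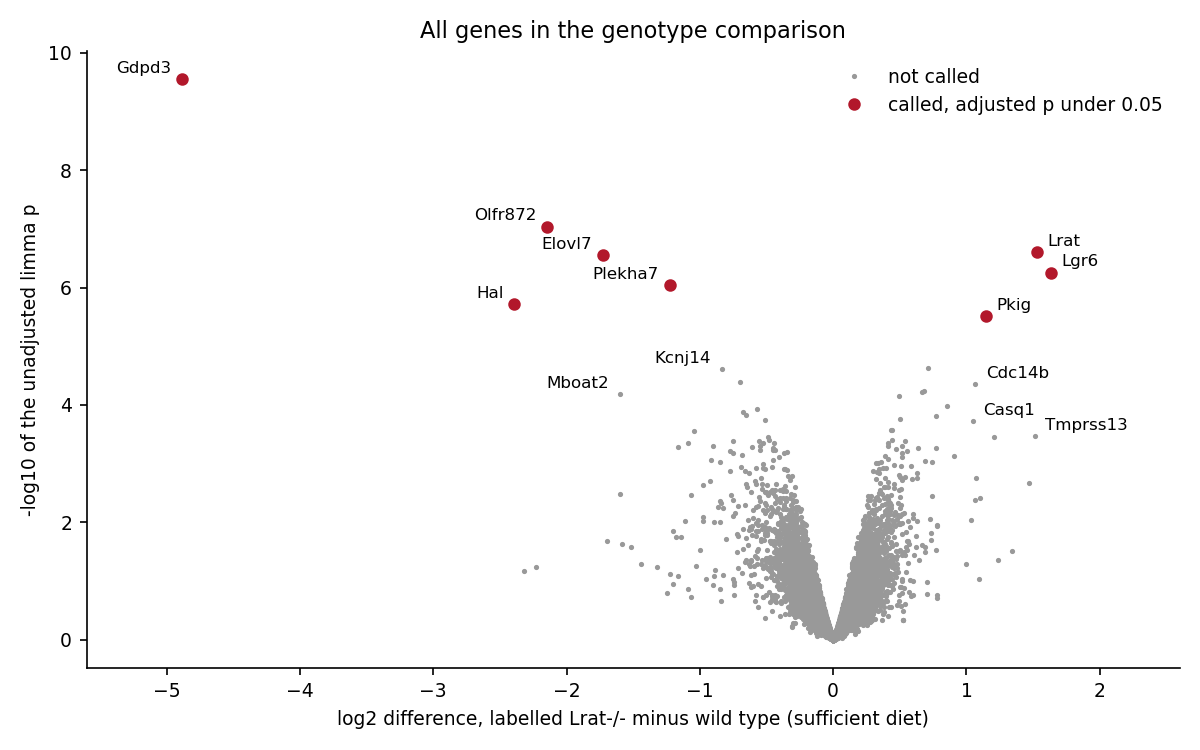
Each point is 1 of 22061 genes, with the log2 difference of arrays labelled Lrat-/- minus wild type on the x axis and the -log10 of the unadjusted limma p on the y axis. The 8 called genes, in red, stand apart from the rest, with Gdpd3 at -4.88 and Lgr6 at 1.63.

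Below the threshold, 8 more genes had an adjusted p under 0.1, and groups did not overlap for 1698 genes, 7.7% of those tested. Of genes that were not called, the 12 with the lowest p in each direction were taken among those with groups that did not overlap. Cdc14b, a phosphatase of cell cycle control, read 9.53, 9.22 and 9.22 across arrays labelled Lrat-/-, against 8.39, 8.04 and 8.34 in wild type. Its difference was 1.07 (adjusted p = 0.0806), and Cdc14b was called once array numbers were blocked (adjusted p = 0.0184). Rerg, a small GTPase of the Ras family, differed by 0.67 (adjusted p = 0.0930).

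Casq1, the skeletal muscle form of the calcium store protein calsequestrin, read 9.64, 9.54 and 8.99 across arrays labelled Lrat-/-, against 8.16, 8.63 and 8.24 in wild type, a difference of 1.05 (adjusted p = 0.171). The 19 skeletal muscle markers that include Casq1 had a median difference of -0.05, with 12 lower and 7 higher. Tmprss13, a membrane serine protease, differed by 1.51 (adjusted p = 0.249), and its wild-type array 2, at 9.56, lay above the other wild-type arrays at 8.26 and 8.45. Tmprss13 was called without wild-type array 2, at a difference of 1.92 (adjusted p = 0.000267). Other genes on the higher side included Zfp943 (1.21), Rsph3a (0.85), Osbpl3 (0.77), Cep63 (0.50), Pus7 (0.49), Narf (0.44) and Ifrd2 (0.43), with adjusted p between 0.0951 and 0.249. Zfp943 was called without wild-type array 1 (adjusted p = 0.00507). For Cep63 and Pus7 another, dimmer probe set showed differences of -0.02 and 0.14, while both probe sets of Rsph3a gave 0.85 and 0.87.

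On the lower side, Kcnj14, an inward rectifier potassium channel, read 6.16, 5.88 and 5.80 across arrays labelled Lrat-/-, against 6.67, 6.79 and 6.89 in wild type. Its difference of -0.84 came close to the threshold (adjusted p = 0.0540). Ptgfr, the receptor for prostaglandin F2α, read 6.42, 6.42 and 6.38 across arrays labelled Lrat-/-, against 7.32, 6.95 and 7.05 in wild type, a difference of -0.70 (adjusted p = 0.0799). Pdpn, a mucin-like protein of mesothelium and lymphatic vessels, differed by -0.57. Igfbp5, a secreted binding protein of insulin-like growth factors, differed by -0.66. Prelp, a small leucine-rich proteoglycan of basement membranes, differed by -0.48. Etv5, an ETS transcription factor downstream of fibroblast growth factors, differed by -0.68 in its brightest probe set and by -0.27 in the other. The list ended with Fbxo44 (-1.05), Phlda1 (-0.75), Tcea3 (-0.56), Aoah (-0.51) and Zfp36l1 (-0.49), and adjusted p for these 12 genes, Mboat2 and Kcnj14 included, ran from 0.0540 to 0.249.

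Gene lists were next described by how many members lay lower or higher, beside 49% of all genes that lay lower. No member of a list was called other than Lrat, Gdpd3, Elovl7, Hal, Lgr6, Pkig and Plekha7, and adjusted p is over all genes. Members at an unadjusted p under 0.05 are counted against 3.01% of all genes on the lower side and 2.71% on the higher side. Members of a list vary together across arrays, so a count over members is not a count of independent observations.

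No gene of retinoid metabolism other than Lrat was called. The 18 genes of retinoid binding, uptake and storage had a median difference of 0.04, with 12 higher and 6 lower. On the higher side 4 were at an unadjusted p under 0.05, Lrat, Rbp7, Dgat2 and the fatty acid transporter Cd36, and 0 on the lower side. Rbp7, a cellular retinol binding protein of vessels, read 7.79, 8.14 and 8.10 across arrays labelled Lrat-/-, against 7.17, 7.02 and 7.84 in wild type, a difference of 0.66 with overlapping groups (adjusted p = 0.791). Dgat2, an acyltransferase of triglyceride synthesis, differed by 0.27 (adjusted p = 0.784) and Crabp1, a retinoic acid binding protein, by -0.19 (adjusted p = 0.905). Cd36 differed by 0.23 (adjusted p = 0.860). The 18 genes of retinoic acid synthesis and breakdown had a median of -0.05. Among them Dhrs3, a retinaldehyde reductase that retinoic acid induces, read 10.43, 10.43 and 10.50 across arrays labelled Lrat-/-, against 10.65, 10.89 and 10.63 in wild type, a difference of -0.27 (adjusted p = 0.698).

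Aldh1a2, the retinaldehyde dehydrogenase of the epicardium, read 7.12, 6.95 and 6.83 across arrays labelled Lrat-/-, against 7.60, 7.47 and 7.08 in wild type, a difference of -0.41 with overlapping groups (adjusted p = 0.871). Cyp26b1, which degrades retinoic acid, differed by -0.16 and Dhrs4, a short-chain dehydrogenase that acts on retinoids, by 0.20. The 22 retinoid receptors and response genes had a median of -0.04, with 8 higher and 14 lower. Rarb, a receptor gene induced by retinoic acid, read 9.93, 9.58 and 9.58 across arrays labelled Lrat-/-, against 9.81, 9.53 and 9.37 in wild type (difference 0.13, adjusted p = 0.950). Rarres2, which encodes chemerin, differed by -0.34, Tgm2, a transglutaminase, by -0.25 and Hoxa4 by -0.14, none called.

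**Figure D4:**
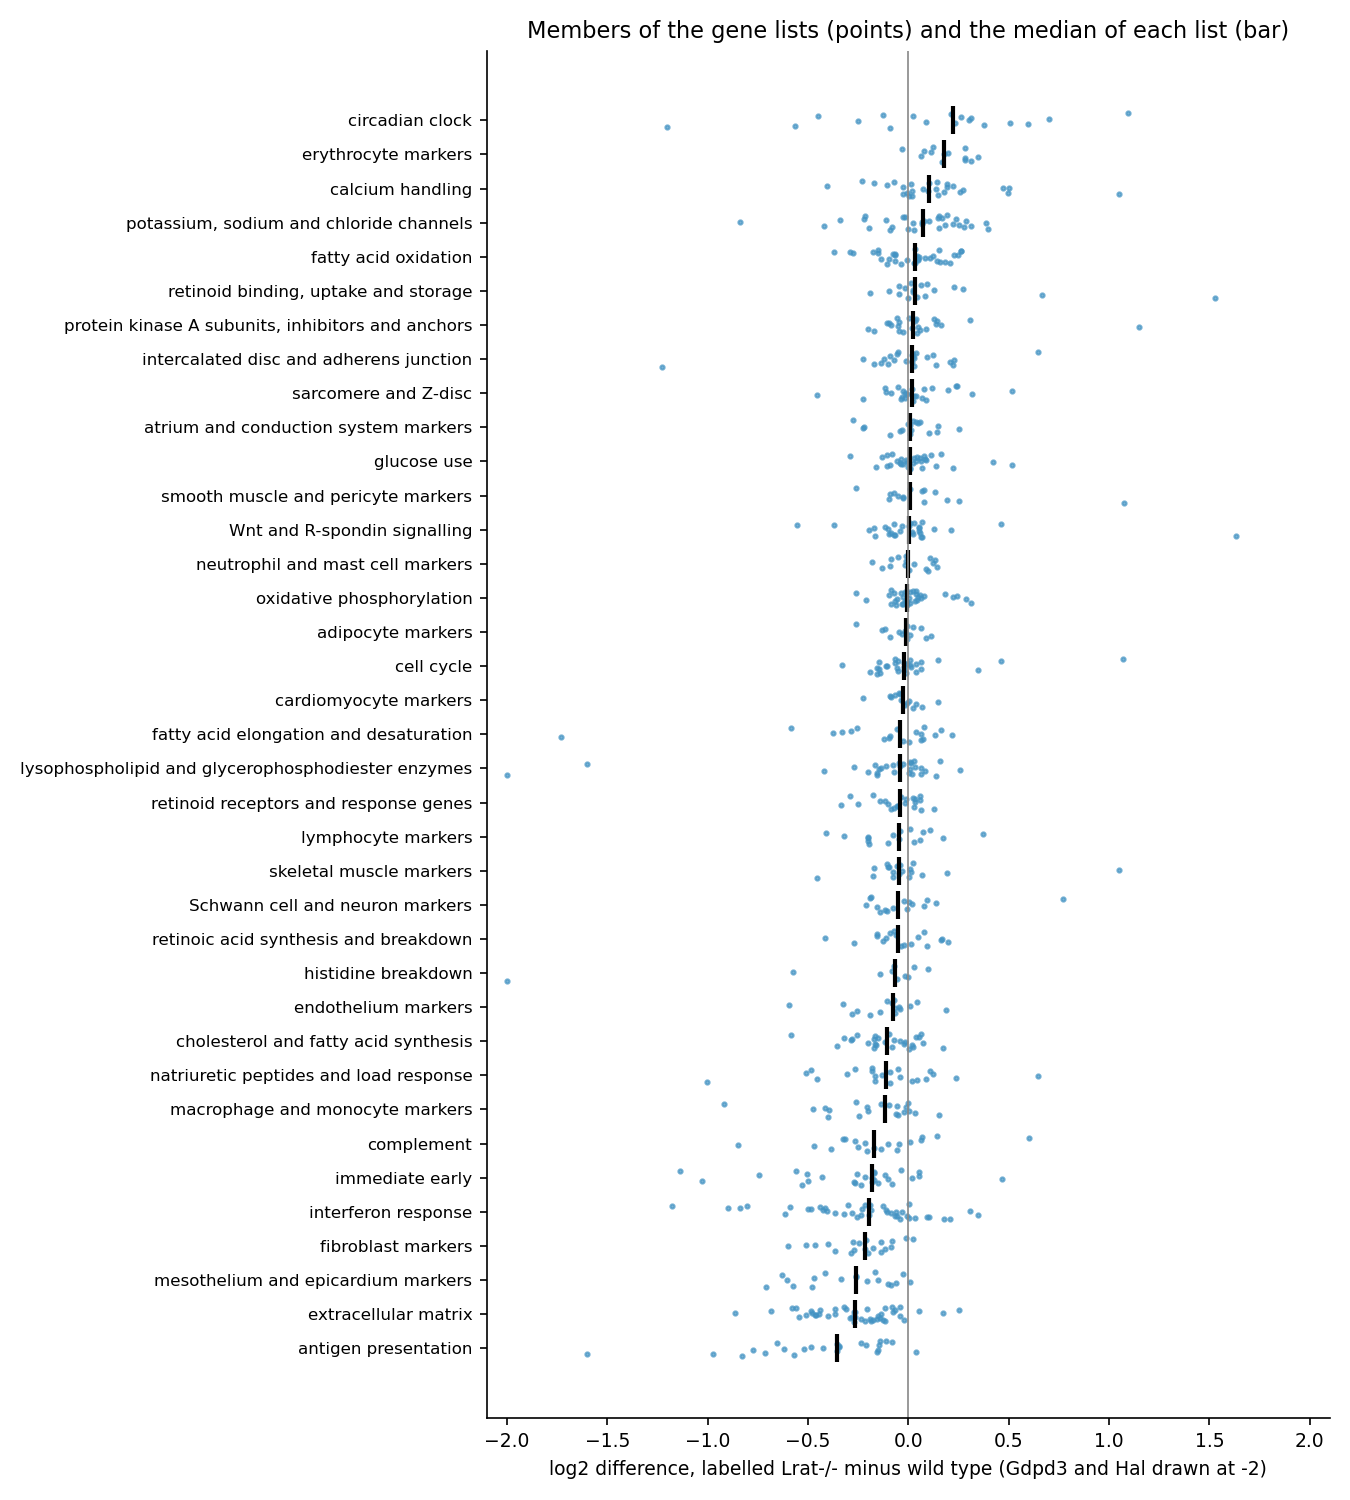
Log2 difference of arrays labelled Lrat-/- minus wild type for each member of 37 gene lists (points), with the median of each list (black bar) and lists ordered by median; Gdpd3 and Hal lie beyond the axis and are drawn at its left edge. Circadian clock genes are at the top, with a median of 0.22, and antigen presentation genes at the bottom, with a median of -0.35.

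Genes of connective tissue lay lower. Of 45 extracellular matrix genes 42 were lower, 19 at an unadjusted p under 0.05, and the median difference was -0.26. Their mean signal was 8.79, 8.91 and 8.79 across arrays labelled Lrat-/-, against 9.05, 9.15 and 9.09 in wild type, with no overlap. Bgn, the proteoglycan biglycan, read 11.26, 11.40 and 11.35 across arrays labelled Lrat-/-, against 11.83, 11.89 and 11.63 in wild type (difference -0.44, adjusted p = 0.249). Fmod, fibromodulin, had the largest negative difference, -0.86 (adjusted p = 0.576). Its signal was 8.33 in wild-type array 1, and 7.25 and 7.41 in wild-type arrays 2 and 3. Timp3, an inhibitor of metalloproteinases, had the largest positive difference, 0.25, with overlapping groups. Leaving out 1 array at a time, the median ran from -0.31 to -0.20. The count at an unadjusted p under 0.05 on the lower side ran from 14 to 22, and was 15 without wild-type array 2.

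Fibroblast markers also lay lower, and 8 of them are matrix genes counted above. Of 20, 19 were lower with a median of -0.22, and their mean was 8.91, 8.96 and 8.93 across arrays labelled Lrat-/-, against 9.16, 9.23 and 9.12 in wild type. Without wild-type array 2 the median was -0.18, with 6 members at an unadjusted p under 0.05 on the lower side, against 8 with all arrays. Pi16, a marker of adventitial fibroblasts, differed by -0.60, Mfap4, a microfibril protein, by -0.51 and Thy1, a surface antigen of fibroblasts, by -0.28, none called (adjusted p = 0.582, 0.319 and 0.615). In bulk tissue, fewer cells of a type and less RNA per cell cannot be told apart. The part of the fibroblast markers in the matrix result was not tested. Mesothelial and epicardial markers also lay lower, 17 of 18, with a median of -0.26. Msln, mesothelin, read 7.20, 7.17 and 7.15 across arrays labelled Lrat-/-, against 7.96, 7.35 and 7.65 in wild type, a difference of -0.48 (adjusted p = 0.680). Upk3b, a uroplakin of mesothelium, differed by -0.71 (adjusted p = 0.888), and both genes were highest in wild-type array 1. Of the 18 markers 3 were at an unadjusted p under 0.05 on the lower side, against 8 with array numbers blocked, 8 without wild-type array 2, 6 without wild-type array 3 and 2 without array 3 of those labelled Lrat-/-. The median was -0.17 without wild-type array 1 and -0.32 without wild-type array 2.

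Genes of antigen presentation, interferon response, complement and macrophages lay lower as well. The mean of each of these lists, like those of the matrix and fibroblast lists, was highest of the 6 arrays in wild-type array 2. Lymphocyte markers had 10 of 17 lower and neutrophil and mast cell markers 8 of 16, and their means were not highest in that array. Of 24 genes of antigen presentation 23 were lower, 15 at an unadjusted p under 0.05, with a median of -0.35. Their mean was 8.61, 8.74 and 8.46 across arrays labelled Lrat-/-, against 8.74, 9.36 and 9.06 in wild type, so wild-type array 1 lay level with the highest array labelled Lrat-/-. H2-K1, a classical class I molecule, read 9.63, 9.75 and 9.58 across arrays labelled Lrat-/-, against 9.90, 10.99 and 10.56 in wild type (difference -0.83, adjusted p = 0.576). H2-T24, a non-classical class I gene, differed by -0.77 (adjusted p = 0.253). H2-Q6 differed by -1.60 (adjusted p = 0.489). Class I genes are near copies of each other, so probes may be shared and single members are uncertain. Without wild-type array 2 the median was -0.19 and 6 members were at an unadjusted p under 0.05 on the lower side, also the count without array 3 of those labelled Lrat-/-. Without wild-type array 1 the count was 19 and the median -0.56.

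Of 42 interferon response genes 33 were lower, with a median of -0.19. Gbp6, an interferon-induced GTPase, differed by -0.84 (adjusted p = 0.540), Gbp4 by -0.90 (adjusted p = 0.656) and Tgtp1, another GTPase of this class, by -1.18 with overlapping groups (adjusted p = 0.733). Rsad2, the antiviral protein viperin, had the largest positive difference, 0.35 (adjusted p = 0.895). The pair of arrays numbered 1 went the other way, with a median difference of 0.15. Without wild-type array 2, 24 of 42 were lower and the median was -0.07, and it was -0.12 without array 3 of those labelled Lrat-/-. The count at an unadjusted p under 0.05 on the lower side was 6, against 3 without wild-type array 2, 2 without array 3 of those labelled Lrat-/- and 18 without wild-type array 1.

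Complement genes had a median of -0.17, with 14 of 19 lower. The median was -0.11 without wild-type array 1 and also without array 1 of those labelled Lrat-/-. Without wild-type array 2 it was -0.14, with 12 of 19 lower. C3, the central complement protein, read 10.48, 10.92 and 10.87 across arrays labelled Lrat-/-, against 11.25, 11.04 and 11.39 in wild type, a difference of -0.47 (adjusted p = 0.636). C4b differed by -0.85 (adjusted p = 0.522) and Serping1, the C1 inhibitor, by -0.32 (adjusted p = 0.758). Cd59a, which blocks the membrane attack complex, went the other way and read 11.67, 11.65 and 11.87 across arrays labelled Lrat-/-, against 10.76, 11.16 and 11.46 in wild type (difference 0.60, adjusted p = 0.652). Of 20 macrophage and monocyte markers 17 were lower, with a median of -0.12. On the lower side 4 were at an unadjusted p under 0.05, or 7 with array numbers blocked and 2 without wild-type array 2. Without that array 16 were lower and the median was -0.08. Retnla, a marker of alternatively activated macrophages, read 6.18, 6.82 and 6.30 across arrays labelled Lrat-/-, against 7.35, 7.41 and 7.31 in wild type (difference -0.92, adjusted p = 0.288). Adgre1, a surface receptor of mature macrophages, and Mpeg1, a pore-forming protein of phagocytes, differed by -0.40 and -0.39 (adjusted p = 0.733 and 0.656). The median of the macrophage list was -0.23 without wild-type array 3.

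Immediate early genes were also highest in wild-type array 2. Of 27 genes 23 were lower, with a median of -0.18, and their mean was 7.94, 8.08 and 8.05 across arrays labelled Lrat-/-, against 8.08, 8.68 and 8.14 in wild type. Arc read 7.68, 8.48 and 7.34 across arrays labelled Lrat-/-, against 8.65, 9.48 and 8.79 in wild type, a difference of -1.14 (adjusted p = 0.733). Ccn1, a matricellular protein, differed by -0.56 and Btg2 by -0.43, while Ier3 differed by 0.47, none called and all with overlapping groups. Without wild-type array 2 the median was -0.03 and 17 of 27 genes were lower, and without wild-type array 3 the median was -0.28. Nppb, which encodes the natriuretic peptide BNP released by stretched ventricle, read 8.47, 8.87 and 7.73 across arrays labelled Lrat-/-, against 9.26, 10.01 and 8.80 in wild type, with overlapping groups (adjusted p = 0.811). Its list of 22 load response genes had a median of -0.11, which ran from -0.17 without array 2 of those labelled Lrat-/- to -0.02 without wild-type array 2. Hmox1, heme oxygenase 1, was another member and differed by -0.51 (adjusted p = 0.705).

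**Figure D5:**
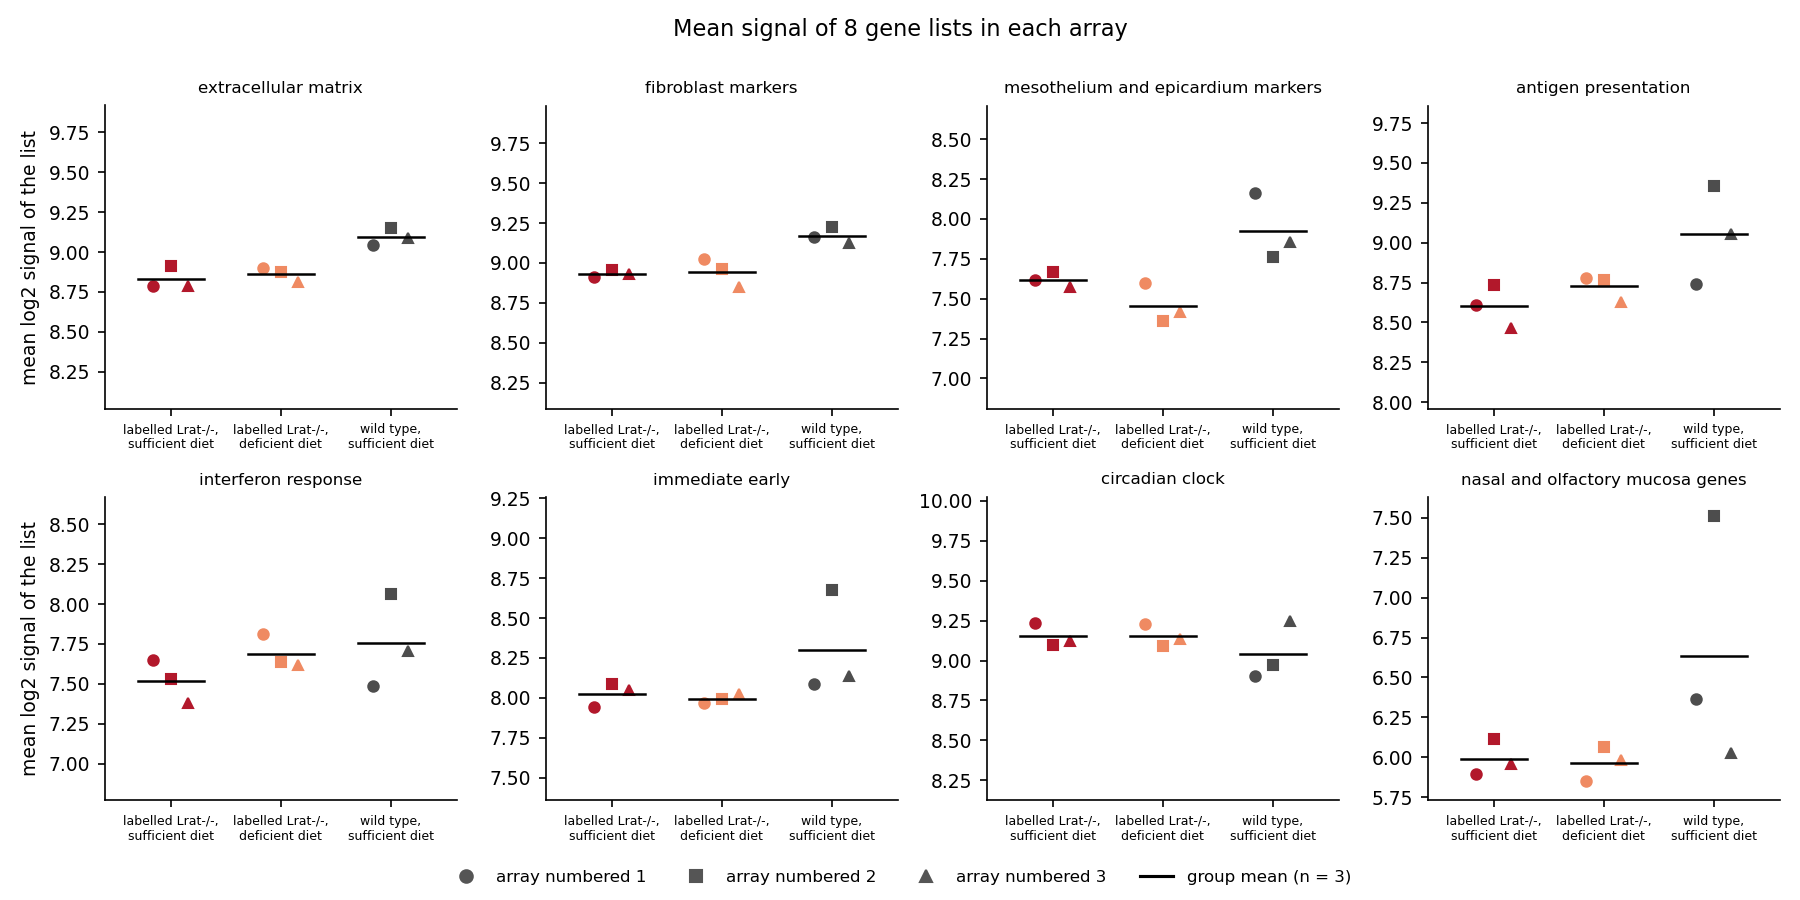
Mean log2 signal of 8 gene lists in each array, by group, with the group mean (bar, n = 3) and an equal span on every y axis. Extracellular matrix and fibroblast lists do not overlap between sufficient-diet arrays labelled Lrat-/- and wild type, and wild-type array 2 is the highest array for immediate early, interferon and nasal genes.

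The nasal and olfactory genes of wild-type array 2 are a list made from these values, so no test is given. Obp2a, an odorant binding protein, read 5.29, 6.45 and 5.44 across arrays labelled Lrat-/-, against 7.52, 10.69 and 5.65 in wild type. Bpifb9b, a secreted protein of nasal glands, read 5.50, 7.56 and 6.36 across arrays labelled Lrat-/-, against 8.21, 11.69 and 6.48 in wild type. Cyp2g1, a cytochrome P450 of olfactory mucosa, read 5.75, 5.92 and 5.64 across arrays labelled Lrat-/-, against 6.91, 8.75 and 5.61 in wild type. Each was highest in wild-type array 2 and next highest in wild-type array 1. Omp, the marker of mature olfactory neurons, read 6.81, 6.81 and 6.58 across arrays labelled Lrat-/-, against 6.86, 7.86 and 6.81 in wild type.

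Over the whole array, 9 genes stood more than 2 log2 units above all 8 other arrays in wild-type array 2, against 1 in wild-type array 1 and 0 in each of the other 7 arrays. Of these 9, 7 were in the nasal list, and Obp2b and Egr1 were the others. Among the arrays labelled Lrat-/-, Obp2a and Bpifb9b were also highest in the arrays numbered 2, with 6.35 and 7.13 on the deficient diet. Of 45 genes with a difference of over 1 log2 unit, 9 were in the nasal list. Without wild-type array 2, 26 genes had such a difference, and 21 of them were among the 45. All 8 called genes were called without that array, where 11 genes were. The source of the nasal transcripts was not tested.

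Genes of calcium handling and ion channels leaned higher. Of 28 calcium handling genes 20 were higher with a median of 0.10, which was 0.03 without wild-type array 2 and 0.07 without array 1 of those labelled Lrat-/-. Calm3, a calmodulin, read 11.01, 11.06 and 10.93 across arrays labelled Lrat-/-, against 10.21, 10.69 and 10.60 in wild type (difference 0.50, adjusted p = 0.377). Slc8a1, the sodium-calcium exchanger, differed by 0.26 (adjusted p = 0.667), while S100a1, a calcium sensor of heart muscle, differed by -0.41 (adjusted p = 0.758). Of 32 potassium, sodium and chloride channels 20 were higher, with a median of 0.07, or 0.11 without wild-type array 3. The median was 0.05 without wild-type array 1. It was also 0.05 without array 3 of those labelled Lrat-/-, with 17 higher and 14 lower. The member with the widest difference, Kcnj14, went the other way at -0.84, as given above. Kcnj11, a subunit of the ATP-sensitive channel, and Kcnq1, the slow delayed rectifier, differed by 0.39 and 0.31 (adjusted p = 0.447 and 0.522).

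With all arrays in the fit, energy metabolism and the contractile apparatus stayed close to the median of all genes. The lists of oxidative phosphorylation (35 genes), fatty acid oxidation (35), glucose use (33), sarcomere and Z-disc (25) and cell cycle (30) had medians between -0.02 and 0.04. Without wild-type array 2 the medians of the first 4 were 0.04, 0.06, 0.05 and 0.04. Higher members then numbered 26, 27, 22 and 16, against 17, 20, 18 and 13 with all arrays. Without wild-type array 1 the counts were 13, 18, 14 and 12 in these lists. Among their members with groups that did not overlap, differences were 0.52 for Pfkfb1, a regulator of glycolysis, 0.29 for Sdhd, a subunit of succinate dehydrogenase, and 0.26 for Ppara, the receptor that drives fatty acid oxidation (adjusted p = 0.391, 0.655 and 0.716). Tcap, the titin cap protein, differed by 0.51 with overlapping groups. Of 28 genes of cholesterol and fatty acid synthesis 20 were lower, with a median of -0.11. Fasn, fatty acid synthase, and Srebf1, its regulator, differed by -0.32 and -0.28 without overlap (adjusted p = 0.792 and 0.694).

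Clock genes had the highest list median, 0.22 over 18 genes, with 12 higher. The median ran from 0.11 without wild-type array 2 to 0.28 without wild-type array 3. The arrays disagreed, with pair medians of 0.43, 0.21 and -0.16 for the numbers 1, 2 and 3. Arntl, the core activator of the clock, read 6.54, 7.59 and 6.34 across arrays labelled Lrat-/-, against 9.11, 8.58 and 6.37 in wild type. Ciart, a repressor of the clock, read 10.34, 9.47 and 9.83 across arrays labelled Lrat-/-, against 7.73, 8.35 and 10.28 in wild type. In both genes wild-type array 3 lay among the arrays labelled Lrat-/- while wild-type arrays 1 and 2 did not, and neither was called (adjusted p = 0.922 and 0.912). Of the 18 clock genes 0 on the higher and 1 on the lower side were at an unadjusted p under 0.05, against 3 and 3 with array numbers blocked, and 7 and 4 without wild-type array 3. The hour of death is not given in the sources used here.

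Markers of other cell types were examined beside these. Of 13 erythrocyte markers 12 were higher with a median of 0.18, which was 0.29 without wild-type array 2 and 0.09 without wild-type array 3. Slc4a1, the band 3 anion exchanger, differed by 0.35 (adjusted p = 0.864). Endothelial markers had a median of -0.08, or -0.16 without wild-type array 1, with 13 of 16 lower, and Cdh5, VE-cadherin, read 10.87, 10.88 and 10.83 across arrays labelled Lrat-/-, against 11.04, 11.14 and 11.24 in wild type (difference -0.28, adjusted p = 0.575). Markers of smooth muscle and pericytes had a median of 0.01, but Acta2, smooth muscle actin, read 13.54, 13.01 and 12.46 across arrays labelled Lrat-/-, against 11.64, 12.18 and 11.97 in wild type, a difference of 1.07 without overlap (adjusted p = 0.377). The arrays labelled Lrat-/- on the deficient diet read 11.92, 12.09 and 11.70 for Acta2, level with wild type. Myh11, the smooth muscle myosin, differed by 0.25 with overlapping groups. Lists for lymphocytes, neutrophils and mast cells, adipocytes, atrium and conduction system, and Schwann cells and neurons had medians between -0.05 and 0.01.

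The genes beside Lrat were examined next. Predicted genes, RIKEN clones, olfactory and vomeronasal receptor genes and genes named by accession were left out of the gene order. Of the 20 nearest remaining measured genes, 10 on each side in the GRCm38.p6 order, none was called. Among these 20, 14 were lower, with a median difference of -0.04. Sfrp2, a Wnt antagonist near Lrat, read 6.81 ± 0.07 across arrays labelled Lrat-/-, against 7.36 ± 0.33 in wild type (SD, n = 3 each), a difference of -0.55 (adjusted p = 0.503). It was the 1 gene of 20 at an unadjusted p under 0.05, or 5%, against 1261 of all 22061 genes. Genes read on the same arrays are not independent observations, so no interval is given for such counts. Gucy1a1, a subunit of soluble guanylate cyclase, and Glrb, a glycine receptor subunit, came next with -0.14 and -0.23 (adjusted p = 0.876 and 0.917). The same count for the other called genes was added after seeing the data. It was 4 of 20 beside Lgr6, 2 of 20 beside Pkig, Hal and Plekha7 and 1 of 20 beside Elovl7. Beside Gdpd3 and Olfr872 it was 0 of 20. Other olfactory receptor genes near Olfr872 were not among the genes counted.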

How the data were processed

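RNA from mouse right ventricle was measured on 9 Affymetrix GeneChip WT arrays in 3 groups of 3. The authors deposited log2 signals per probe set made with RMA (background correction, quantile normalization and summary); per the submitters' processing notes R 3.1.2 and the mm8 build were used. The authors' deposited table gives a ratio of group means, p-values and false discovery rates per probe set per the file headers, whose model was an ANOVA that included scan date; no scan date is tied to a sample here. A further deposited table served for annotation only, and its 9 columns of values, whose names match no label, were not used.

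Of 35556 probe sets, 25465 had 1 gene symbol. Names were updated through RefSeq (GRCm38.p6): 22115 by accession, 1815 by symbol and 625 by synonym, while 910 kept the name in the file. Each of 22061 genes was represented by its brightest probe set, judged by the mean of all 9 arrays. Differences were fitted with limma 3.58.1 in R 4.3.3 on all 9 arrays (group means, empirical Bayes, 6 residual and 3.34 prior degrees of freedom, Benjamini-Hochberg adjustment over all genes). On simulated data with 200 changed genes, the fit was checked before use. Arrays give no count depth, so the number of arrays limits precision.

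Named genes were all called genes, the 12 of lowest p in each direction among other genes without overlap, the largest and lowest-p members of each list, and Lrat with 3 neighbours. A few genes that these rules pick are not reported here. The 37 lists held 806 genes, 798 of them measured. Members and lists were chosen with earlier results of these data known. The nasal list was added after its values were seen.

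Samples carry the numbers 1 to 3 in each group. After removal of group means, r between same-number arrays of the 2 groups was 0.249 to 0.391 (3 pairs), against -0.287 to 0.005 for other pairs (6 pairs). Deviations within a group sum to 0, so these 2 ranges are not independent. The numbers were taken to pair the samples, from the data and not from a label. The main fit did not block on this pairing. Alternatives were this block, a term for or the removal of the arrays numbered 3, array weights, other moderation, other scaling, filters on dim genes, all probe sets, only 6 arrays, and each array left out. Figures used matplotlib 3.10.9.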

Additional observations from a re-analysis of the deposited data

Results flagged for a closer look

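The probe sets that gave these results carry no gene name and so belong to no gene comparison, yet their signal differed between the groups. The 4 viral envelope probe sets that share 1 set of values had a log2 difference of 5.95, arrays labelled Lrat-/- minus wild type. The probe set with no annotation had a difference of 5.20. The negative control probe set had a difference of 2.82, where the median over 5222 negative controls was 0.10. The positive control probe set had a difference of -1.81 and the pseudogene probe set one of -2.58. Among negative controls, 7.87% were at an unadjusted limma p under 0.05, and among probe sets with 1 gene symbol 4.47% were. The dimmer group of the viral, negative control and pseudogene probe sets had arrays below the control median, so these differences are limited by background. What these probe sets detect was not tested.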

How the results depend on the processing

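The number of called genes was 8. It was 2 with only the 6 arrays of the comparison, 2 with the arrays numbered 3 left out, 1 with no moderation of the variance, 5 among the 6265 genes above the 95th percentile of the controls, 16 at an adjusted p under 0.10, and between 7 and 27 when 1 array was left out, the highest without wild-type array 1. Over 29010 probe sets, with genes not collapsed and probe sets without a symbol of a single gene added, 15 were called, the 8 genes and 7 of the probe sets added. Of the 8 called genes, 2 were kept with only the 6 arrays, 1 with the arrays numbered 3 left out, 1 with no moderation and 3 above the 95th percentile of the controls, where only 3 of the 8 were tested, and between 7 and 8 when 1 array was left out. Members of the lists at an unadjusted p under 0.05 numbered 125, were 75 among the 404 measured above that percentile, and ranged from 92 to 161 when 1 array was left out. Lrat kept its direction, but was not called with only the 6 arrays (difference 1.53, adjusted p = 0.0666) or without the arrays numbered 3 (difference 1.47, adjusted p = 0.110). It was not called with no moderation either (difference 1.53, adjusted p = 0.138). These fits had fewer arrays or fewer degrees of freedom. Lrat was not among the genes tested above the 95th percentile of the controls. With a replicate block 10 genes were called, all 8 among them; beside Cdc14b and Mboat2 it changed no other call of a named gene. No direction of a called gene was reversed under any of the 18 alternatives in which it was tested. Only other scaling could have reversed one, because the remaining fits used the same values of groups that did not overlap. The medians of the matrix, fibroblast, mesothelium, antigen presentation, interferon, complement, macrophage, immediate early, calcium, channel, erythrocyte and clock lists kept their sign under median centring and cyclic loess. Only 4 of the 42 interferon genes were tested above the 95th percentile of the controls, and their median was -0.58, against -0.19 for the whole list. The 5 genes of retinoic acid synthesis and breakdown above it had a median of 0.08, against -0.05 for all 18. Signal near background limits Elovl7, Olfr872 and the viral envelope, negative control and pseudogene probe sets, whose folds are bounds. The dimmer groups of Gdpd3 and of the probe set with no annotation lay above the control median, on some arrays only just. Their differences are therefore also limited by background, although no bound is given.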
